A study of Mus musculus with 4 samples.

Results

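The 40 genes described here mark cells that copy their DNA or divide: 25 act mainly in mitosis and 15 in DNA replication. They were taken by symbol, and all 40 were found once each among the 31053 genes of the files. The values come from single-cell RNA of whole mouse pancreas, from wild-type (WT) C57BL/6 animals that received saline or caerulein and recovered for 2 days or 6 weeks. Caerulein is an analogue of the hormone cholecystokinin that overstimulates the enzyme-secreting acinar cells and causes acute pancreatitis. There was 1 library for each of the 4 groups: saline at 2 days (S2D), caerulein at 2 days (C2D), saline at 6 weeks (S6W) and caerulein at 6 weeks (C6W). Live cells had been sorted as negative for the dye DAPI before capture, so no labelled cell type was enriched. The sources used here do not say how many animals went into a library. With 1 library a group, the spread between animals is not known and no p-value is given. The intervals given are exact, at 95%, and cover counting error only.

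A dividing cell first switches on the genes that license and copy its DNA, which E2F transcription factors drive, and later the genes that condense, attach and separate its chromosomes, which the DREAM and MuvB complexes control together with B-Myb and FoxM1. Replication genes such as Pcna and the Mcm helicase subunits are also kept at a low level in many cells that do not divide, whereas mitosis genes are mostly silent outside late S, G2 and M phase. Acinar, ductal and mesenchymal cells of the adult pancreas divide rarely, and cell division in several of these types is a known part of repair after pancreatitis.

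The promoter sequences are shown first because the mitosis and replication genes, which separated in the cells described below, also differ there. Windows of 250 bases before to 50 after the transcription start were in RefSeq (GRCm38.p6) for 33 members, 20 of the mitosis genes and 13 of the replication genes. Letters of 3 motifs were searched on both strands. They were the CCAAT box (letters CCAAT), the cell cycle homology region or CHR (TTTGAA), and the E2F site (TTTGGCGC, TTTCCCGC, TTTCGCGC or TTTGCCGC). A CCAAT box and a CHR stood together in 75.0% of the mitosis windows, in 7.69% of the replication windows and in 7.97% of the windows of all 27025 genes. E2F letters were in 5.0% of the mitosis windows, 46.2% of the replication windows and 2.6% of all windows. A CCAAT box, with or without a CHR, was in 90%, 61.5% and 41.1% of these windows, and a CHR, with or without a CCAAT box, in 75.0%, 7.69% and 20.2%. A match of letters is a description of the window, not evidence that a factor binds there. The 130 bases before the start are printed 5′ to 3′ on the strand of the gene, with matches on either strand in capitals. They are shown for 3 mitosis genes (Top2a, Ube2c, Cdk1) and 2 replication genes (Mcm6, Pcna), as examples that do not stand for each set. The windows of the mitosis genes Birc5 and Nusap1 held none of the 3 motifs.
Top2a, chr11:99024190-99024319, minus strand: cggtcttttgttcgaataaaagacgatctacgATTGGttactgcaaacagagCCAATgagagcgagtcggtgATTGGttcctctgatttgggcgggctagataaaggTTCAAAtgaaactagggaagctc
Ube2c, chr2:164769799-164769928, plus strand: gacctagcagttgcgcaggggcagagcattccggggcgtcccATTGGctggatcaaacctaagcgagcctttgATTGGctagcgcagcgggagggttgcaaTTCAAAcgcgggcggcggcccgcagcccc
Cdk1, chr10:69352913-69353042, minus strand: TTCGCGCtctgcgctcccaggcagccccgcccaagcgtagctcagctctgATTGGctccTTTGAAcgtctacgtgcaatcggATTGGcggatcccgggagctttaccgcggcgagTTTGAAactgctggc
Mcm6, chr1:128359706-128359835, minus strand: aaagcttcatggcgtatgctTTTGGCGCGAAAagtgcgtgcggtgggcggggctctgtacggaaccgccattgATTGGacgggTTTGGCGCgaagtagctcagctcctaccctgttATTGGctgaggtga
Pcna, chr2:132253181-132253310, minus strand: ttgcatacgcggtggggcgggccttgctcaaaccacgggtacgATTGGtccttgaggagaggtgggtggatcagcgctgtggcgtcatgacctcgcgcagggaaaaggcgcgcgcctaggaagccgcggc
Each of the 3 mitosis promoters carried 1 or 2 CHRs beside CCAAT boxes, and Cdk1 also held E2F letters, of which the first base lies outside the printed stretch. Mcm6 carried E2F letters in 2 places and no CHR, and Pcna a single CCAAT box with neither of the other motifs.

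The libraries held 29145886 to 71547194 unique molecular identifiers (UMIs, counted mRNA molecules), and 3308 (S2D), 4637 (C2D), 2017 (S6W) and 2741 (C6W) cells were analysed. The cell cycle genes were kept out of the clustering, so that they could not define the clusters in which they were then counted. Among the 31 clusters, marker genes gave 29 a name, in 15 classes, each called X-like. A cluster of 450 cells, 389 of them from C2D, carried acinar and ductal markers together and stayed unnamed. C2D ductal-like cells were mostly in a different cluster (162 of 175 cells) from those of the other libraries, as were fibroblast-like (545 of 587) and acinar-like cells (all 389), while lymphocytes shared clusters across libraries. The largest macrophage-like cluster of C2D also differed from that of each other library. Pairs of libraries shared 3 to 22 cell barcodes. C2D cells were also deeper, with a median of 20500 UMIs against 8630 in S2D for ductal-like cells, 22570 against 10790 for fibroblast-like, 14100 against 9697 for macrophage-like and 10010 against 6650 for acinar-like cells. Shares of cells are therefore given after each cell was thinned to 2000 UMIs, without cells shallower than that.

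A cell was counted as mitosis-positive where UMIs of at least 3 of the 25 mitosis genes remained, and as replication-positive where at least 3 of the 15 replication genes did. Over all classes 38 of 3174 S2D cells were mitosis-positive (1.197%, interval 0.8486 to 1.64), as were 136 of 4473 in C2D (3.04%, 2.557 to 3.586), 5 of 1964 in S6W (0.2546%, 0.08271 to 0.5931) and 31 of 2682 in C6W (1.156%). The make-up of these cells differed between libraries. Macrophage-like cells were 55.88% and ductal-like cells 18.38% of the C2D total, while plasma-like cells, which were nearly absent from C2D, were 60.53% of the S2D total. Type 2 innate lymphoid-like cells held no mitosis-positive cell in any library, among 51, 34, 20 and 42 cells in S2D, C2D, S6W and C6W (in C2D a count of 0 allows up to 8.82%, taken here and below as 3 counts of the total). Acinar-like cells after saline held none either, among 395 cells in S2D and 421 in S6W, which allows up to 0.759% and 0.713%. Both classes served as the background level and were chosen as such after their values were seen. Digestive genes filled a median of 87.4% of the UMIs of acinar-like cells in S2D and 85.5% in S6W, against 57.8% in C2D. Thinned acinar-like cells after saline thus kept fewer UMIs of other genes, which limits them as a background.

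**Figure D1:**
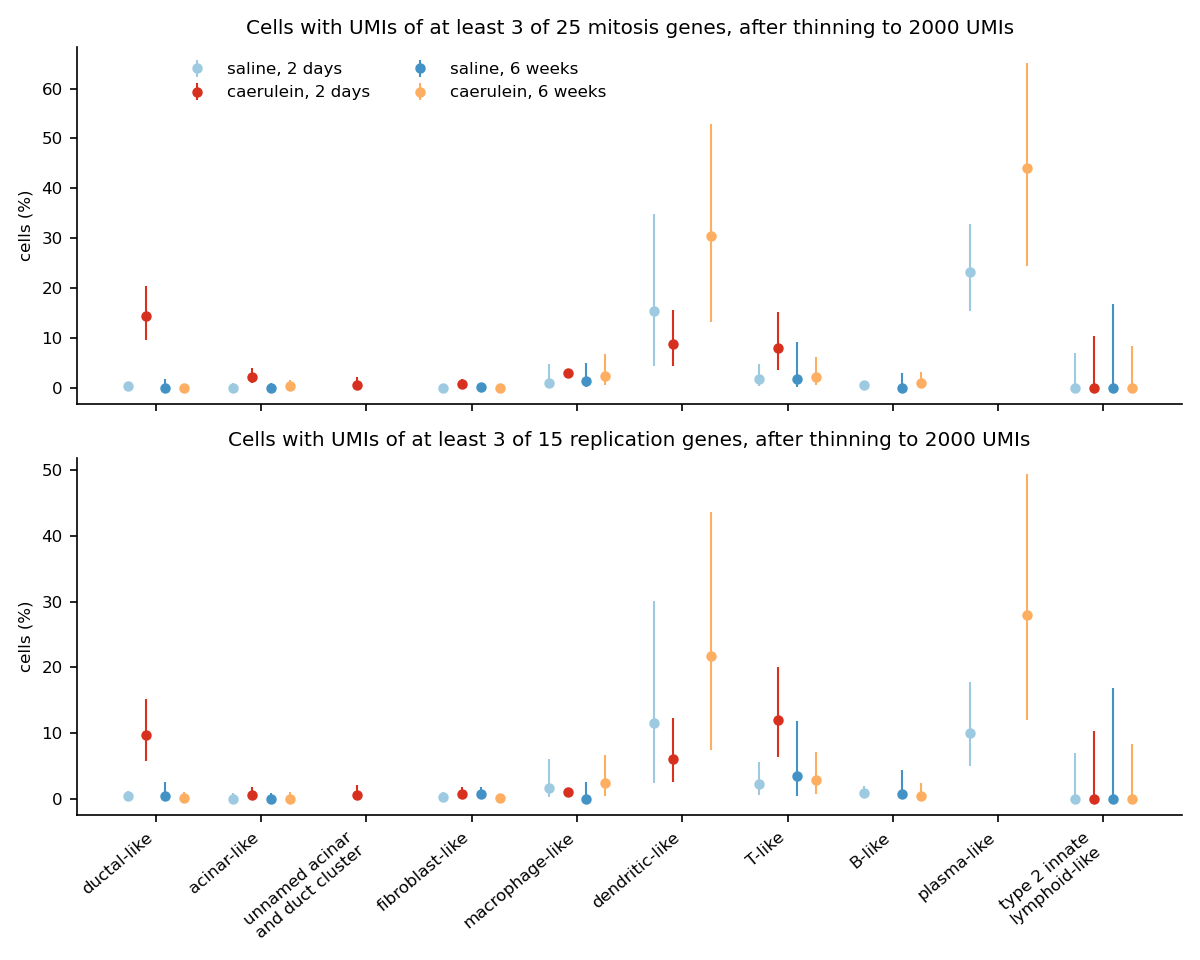
Share of cells (%) with UMIs of at least 3 mitosis genes (upper panel) or 3 replication genes (lower panel) after thinning to 2000 UMIs, by cell class and library, with exact 95% intervals as lines. The ductal-like share of mitosis-positive cells in C2D (14.37%) stands above the other 3 libraries, while the plasma-like and dendritic-like shares were high after saline or at 6 weeks as well.

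Ductal-like cells at 2 days had the widest gap between caerulein and saline of the classes given in both libraries. Mitosis-positive cells were 2 of 717 in S2D (0.2789%, 0.0338 to 1.004), 25 of 174 in C2D (14.37%, 9.519 to 20.48), 0 of 217 in S6W and 0 of 534 in C6W, where a count of 0 allows up to 1.38% and 0.562%. The C2D share was high and the intervals of the other 3 libraries lay below it without overlap. Replication-positive cells were also most frequent in C2D, with 3 of 717 in S2D (0.4184%), 17 of 174 in C2D (9.77%, 5.795 to 15.18), 1 of 217 in S6W and 1 of 534 in C6W. Another 11 C2D cells held exactly 2 mitosis genes and 3 held exactly 3, so the share moves with the threshold, while the gap to saline holds more cells than that. Without thinning the mitosis-positive shares were 1.686% in S2D and 37.71% in C2D.

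Of the 40 members, 38 were at least 2-fold higher in C2D than in S2D ductal-like cells when UMIs were summed over the class, where 8.6% of all compared genes were. Such sums cannot tell more expressing cells from more RNA per cell. The 25 mitosis genes were all higher, with a median log2 ratio of 5.58, and 13 of the 15 replication genes were, with a median of 1.91, beside -0.04 over all genes compared. Between the saline libraries, S6W over S2D, 1 of 16 compared ductal-like members was at least 2-fold higher (Rrm2) and 2 were lower (Top2a and Mcm5), where 1.02% and 2.79% of all genes were. The levels below are CPM, the UMIs of a gene scaled to the total of its class in that library, and the log2 ratios use totals adjusted between the libraries compared (TMM). UMIs counted at the 3′ end of mRNA do not scale with gene length.

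The kinase and cyclin that start mitosis were close to absent outside C2D. Cdk1, the mitotic kinase, was at 1.43 CPM in S2D against 64.72 in C2D, and at 0 in S6W against 0.4798 in C6W, a log2 ratio of 5.59 at 2 days (4.68 to 6.66). Its partner Ccnb2, cyclin B2, was at 0.143, 52.87, 0.4101 and 1.599 CPM, from 1 UMI in S2D and 223 in C2D, with a log2 ratio of 8.62 (6.12 to 13.93). Ccnb1, cyclin B1, rested on 1 and 115 UMIs, a log2 ratio of 7.66. In each of these genes C2D was high and the other 3 libraries were low.

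Mki67, which coats mitotic chromosomes and is the standard marker of proliferation, was at 0.5718 CPM in S2D against 67.09 in C2D, and at 1.23 in S6W against 0.9596 in C6W, with a log2 ratio of 6.96 (5.59 to 8.85). Top2a, the topoisomerase that untangles sister chromatids, was at 3.288, 56.9, 1.23 and 4.158 CPM (log2 4.20, 3.58 to 4.88). Cenpf, a kinetochore protein, was at 0.5718, 82.98, 1.64 and 1.279 CPM (log2 7.27). Among genes of the spindle and of mitotic exit, Birc5 (survivin, of the chromosomal passenger complex) was at 1.144, 64.72, 0.4101 and 0.7996 CPM, a log2 ratio of 5.91. Ube2c, the ubiquitin-conjugating enzyme of the anaphase-promoting complex, was at 0.8577, 104.3, 1.23 and 1.759 CPM (log2 7.01, 5.88 to 8.47). Tpx2, a spindle assembly factor, had 1 UMI in S2D and 145 in C2D (log2 7.99, 5.49 to 13.31).

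Stmn1, which destabilises microtubules, was present in every library. It was at 134.7 CPM in S2D against 465.4 in C2D, and at 141.1 in S6W against 125.5 in C6W, a log2 ratio of 1.87 (1.76 to 1.99), and 21.06% of thinned S2D cells already had a UMI of it.

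Replication genes had a smaller median ratio than mitosis genes. Tyms, Mcm6 and Pcna started in S2D from a higher level than the mitosis genes named above other than Stmn1. Tk1, Rrm2 and Mcm3 did not. Tk1 and Rrm2 supply nucleotides: Tk1 (thymidine kinase) was at 1.001, 33.43, 0.4101 and 0.9596 CPM in S2D, C2D, S6W and C6W (log2 5.15, 4.07 to 6.49), and Rrm2 (ribonucleotide reductase) at 2.144, 20.86, 5.331 and 0.7996 CPM (log2 3.37). Tyms, thymidylate synthase, was at 20.44, 60.69, 17.63 and 15.19 CPM (log2 1.65, 1.35 to 1.96). The helicase subunits were uneven. Mcm3 was at 3.288, 36.51, 3.281 and 3.199 CPM (log2 3.56), and Mcm6 at 22.44, 67.33, 23.37 and 21.91 CPM (log2 1.67). Pcna, the sliding clamp of DNA polymerase, was at 38.88, 41.01, 43.47 and 39.98 CPM, with a log2 ratio of 0.16 (-0.12 to 0.44), so all 4 libraries lay close together. Ccne2, a cyclin E, was the other member between the 2-fold limits (-0.06, from 22 and 12 UMIs).

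**Figure D2:**
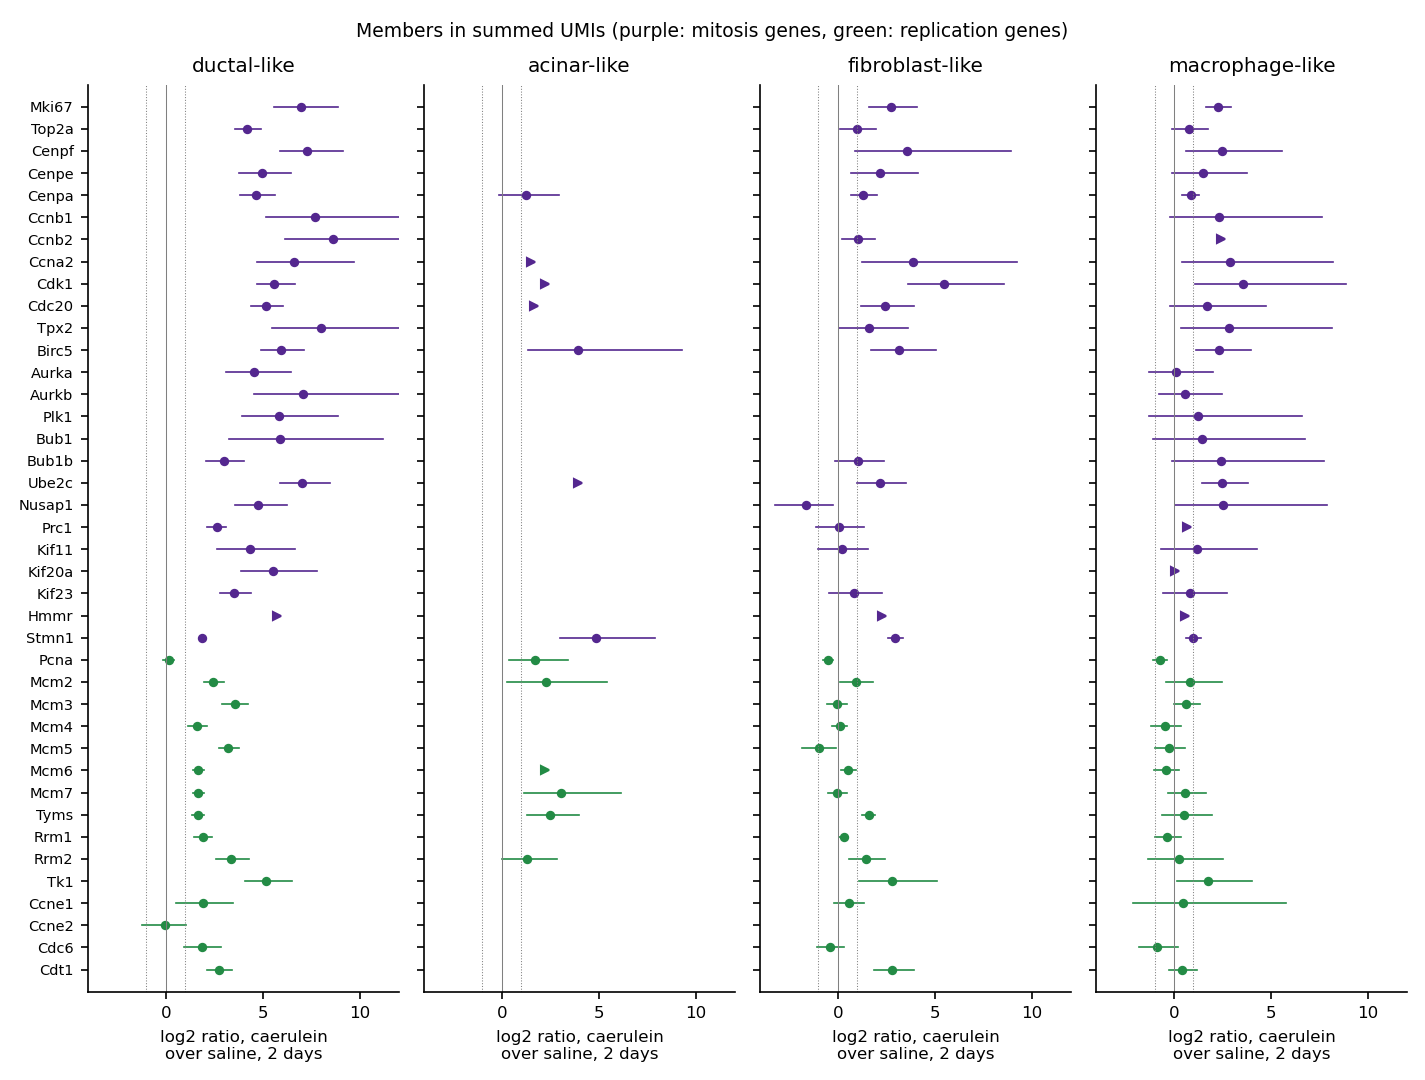
Log2 ratio of summed UMIs, C2D over S2D, for each member with at least 20 UMIs over both libraries, in 4 classes (points, with exact 95% intervals as lines that end at the axis limits, and triangles for lower bounds where S2D had 0 UMIs, set to 3). Dotted lines mark 2-fold. All ductal-like mitosis genes (purple) lie right of the 2-fold line, with replication genes (green) closer to it in the median. Replication genes of macrophage-like cells centre near 0 (Tk1 apart).

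The 25 mitosis-positive ductal-like cells of C2D carried 4761 of the 5831 unthinned mitosis-gene UMIs of the class (81.65%) and 49.58% of its replication-gene UMIs. The first share is raised by the choice of these cells, which used the mitosis genes. Within those cells the genes seen most often after thinning were Stmn1 (92.0%), Birc5 (60.0%), Mki67 (48.0%), and Ube2c, Ccnb2 and Cenpf (44.0% each), named after their values were seen. Of the 32 ductal-like cells past either threshold, 15 were positive for mitosis genes only, 10 for both sets and 7 for replication genes only. The mitosis-positive cells kept ductal markers: 80.0% had Krt19 (69.13% of the other C2D ductal-like cells), 48.0% had Sox9 (61.07%), and every cell had Spp1. Their median depth was 23570 UMIs against 20100, and their median doublet score by Scrublet 0.0637 against 0.0221. Whether doublets took part in these shares was not tested beyond removing cells by an expected doublet rate, after which 38 members were again higher.

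Outside the 40 members, 54 other cell cycle genes were followed in 5 groups. In ductal-like cells at 2 days 12 of 15 compared further mitosis genes were at least 2-fold higher, beside 8.6% of all compared genes, among them Anln (1 and 43 UMIs, log2 6.24), Cdca3 (5 and 213, 6.23) and Racgap1 (10 and 151, 4.73), which act in cytokinesis or entry into mitosis. Of 15 further replication genes 9 were higher, and of 8 compared E2F, RB and mitotic transcription factors 4 were. Some of these genes, such as Anln, reached the minimum of 20 UMIs only through C2D. E2f1, an activating E2F, rested on 2 UMIs in S2D and 62 in C2D (log2 5.77, 3.86 to 8.85). E2f8 (at least 3.62 against 0 UMIs in S2D), Foxm1 (2.21) and Mybl2 (2.14) were the other 3 and are named for completeness of that count. No G1 cyclin or kinase of 6 was higher. Ccnd1, cyclin D1, was lower, at 988.4 CPM in S2D and 385.5 in C2D (log2 -1.27, -1.353 to -1.196). The inhibitors Cdkn1a (p21) and Cdkn2c (p18) were between the limits at -0.14 and 0.03.

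Acinar-like cells at 2 days held few cells with these genes, from a base of almost none. Mitosis-positive cells were 0 of 395 in S2D, 8 of 388 in C2D (2.062%, 0.8943 to 4.022), 0 of 421 in S6W and 1 of 341 in C6W (0.2933%). C2D was high, but its exact interval overlapped that of S2D narrowly. Digestive genes filled a median of 87.4% of the UMIs of S2D cells and 57.8% of those of C2D cells. After thinning, S2D and C2D cells were thus not at equal depth in other genes. Replication-positive cells were 0, 2, 0 and 0. Exactly 2 mitosis genes were found in 9 further C2D cells and exactly 3 in 4, so the share lay close to its threshold.

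Only 13 members reached 20 UMIs over both acinar-like libraries, and all 13 were at least 2-fold higher in C2D, where 19.6% of all compared genes were. The other 27 were too sparse to compare, and a gene near 0 after saline could reach the minimum only by being higher in C2D, so these 13 do not speak for all members. Ube2c had 0 UMIs in S2D against 110 in C2D, and 3 in S6W against 12 in C6W, a log2 ratio of at least 3.94. Stmn1 had 2, 138, 7 and 7 UMIs (log2 4.85, 2.97 to 7.91). Birc5 had 1, 36, 0 and 4 UMIs (log2 3.91, 1.34 to 9.25).

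Cdk1 (0, 33, 0 and 2 UMIs, at least 2.20) was among the 13 as well, with Tyms (6, 79, 10 and 7 UMIs, 2.46), Rrm2 (6, 35, 5 and 6, 1.29), Pcna (5, 39, 9 and 1, 1.71) and Mcm6 (0, 33, 9 and 3, at least 2.20). Mcm7 (log2 3.06) and Mcm2 (2.27), both helicase subunits, were the remaining named members. In all of them C2D was high and the 3 other libraries were low. Mki67 itself had 1, 6, 0 and 3 UMIs and Top2a 0, 13, 0 and 1, both under the minimum, as were Ccnb2, Cenpf, Mcm3 and Tk1.

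The digestive enzymes fill most of an acinar-like cell's UMIs, so the scaling matters here. By plain CPM the median log2 ratio of all genes was 1.6, against 0.17 in the values above, 74.2% of them passed the 2-fold limit and the Stmn1 ratio was 6.27. By totals without digestive genes the median was -0.16, and 11 members were higher, where 12.2% of all genes were. The 8 mitosis-positive acinar-like cells had a median digestive share of 39.5% of their UMIs against 58.0% in the other 380 cells. Of the genes of duct and acinar injury states followed in the 8 cells, Krt8 was in 6 (56.58% of the others), Krt18 in 5 (71.05%), Krt7 and Spp1 in 1 each (1.842% and 10.53%), and Krt19, Cldn4 and Sox9 in 0 (12.11%, 3.684% and 0.7895%). Of the acinar transcription factors followed, Rbpjl was in 3 (20.79% of the others), Bhlha15 in 2 (8.947%) and Ptf1a in 0 (2.105%). With 8 cells an exact interval for 0 reaches 36.94%. All 8 had Clu and Reg3b, as nearly all of the others had. In the unnamed acinar and duct cluster only 2 of 329 C2D cells were mitosis-positive (0.6079%, 0.0737 to 2.179). Further members of the cycle were also higher in acinar-like cells, 6 of 7 compared mitosis genes and 3 of 4 compared replication genes, where 19.6% of all compared genes were. Cks2 (log2 2.08), Hmgb2 (2.20), Fen1 (2.50) and Prim1 (3.06) are named. Of the arrest side, Cdkn1a was at 21.56 CPM in S2D and 163.8 in C2D (log2 1.503, 1.22 to 1.80). Ccnd1 had 9 and 11 UMIs (-0.97), and Cdkn2c was too sparse to compare.

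**Figure D3:**
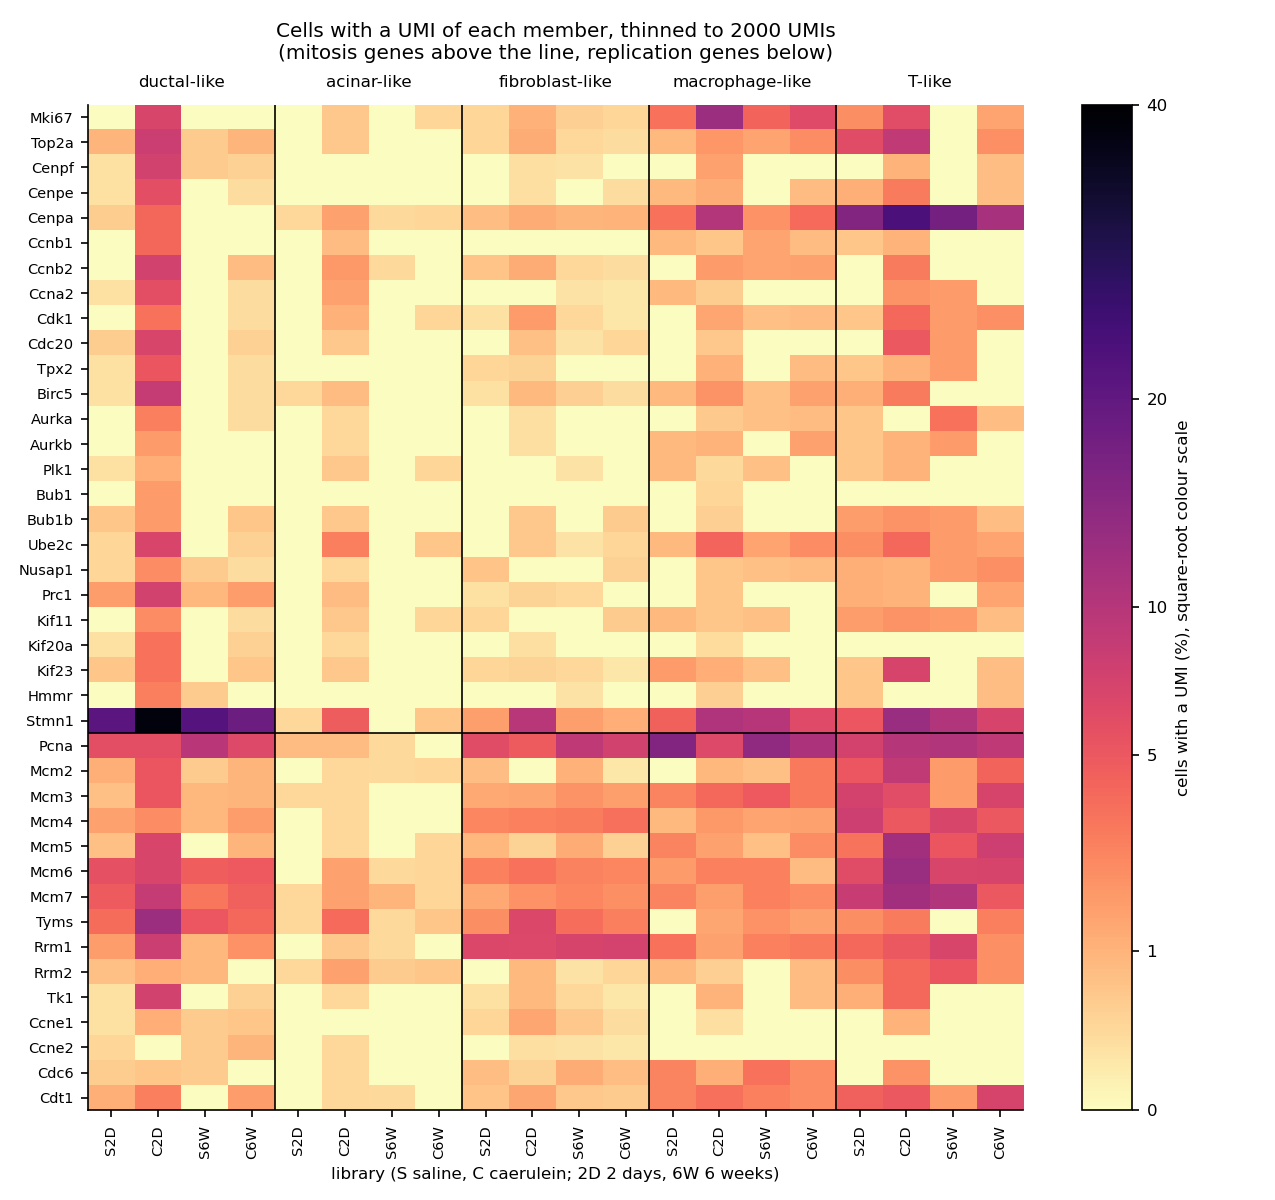
Share of cells (%, square-root colour scale) with a UMI of each member after thinning to 2000 UMIs, by class and library. Ductal-like C2D is the darkest column of its class for most mitosis genes, among the 5 classes shown Mki67 is darkest in macrophage-like C2D (12.65%), and Pcna and Stmn1 are seen in most classes and libraries.

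Fibroblast-like cells showed higher mitosis genes in the sums at 2 days but few mitosis-positive cells. These were 0 of 680 in S2D, 4 of 582 in C2D (0.6873%, 0.1876 to 1.75), 1 of 744 in S6W and 0 of 1107 in C6W. The exact intervals of S2D and C2D overlapped. Replication-positive cells were 2, 4, 6 and 1. Without thinning the mitosis-positive shares were 0.4373% in S2D and 13.29% in C2D, and the replication-positive shares 12.97% and 47.7%. The thinned and unthinned values thus differ more in this class than the thinned libraries do, and the deeper library was the one with the higher unthinned shares.

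Of 33 fibroblast-like members compared, 19 were at least 2-fold higher in C2D, where 12.3% of all genes were, and 1 (Nusap1, 13 and 7 UMIs, log2 -1.67) was at least 2-fold lower, where 8.45% were. A gene near 0 in S2D, such as Cdk1, could reach the minimum of UMIs only by being higher in C2D. The count of higher members therefore does not speak for all members. Between the saline libraries, S6W over S2D, 0 of 21 compared members were at least 2-fold higher or lower, where 1.67% and 2.13% of all genes were. The mitosis genes made up 15 of the 19, of 19 compared. Cdk1 was at 0.27 CPM in S2D against 11.09 in C2D, and at 1.528 in S6W against 0.1502 in C6W (log2 5.47, 3.596 to 8.53). Mki67 was at 0.945, 5.765, 1.528 and 0.901 CPM (log2 2.72, 1.61 to 4.08), and Stmn1 at 8.1, 58.23, 9.471 and 7.658 CPM (log2 2.96). C2D was the highest library in each of these 3 genes. Birc5 (log2 3.13), Cenpf (3.55), Ccna2 (3.87, cyclin A2) and Ccnb2 (1.02) were higher too, and Top2a stood at the limit (1.004, 0.12 to 1.98).

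Of 14 compared replication genes 4 were higher in fibroblast-like cells. These were the nucleotide enzymes Tyms (log2 1.58), Rrm2 (1.43) and Tk1 (2.77) and the licensing factor Cdt1 (10 and 120 UMIs, 2.81). The other ribonucleotide reductase subunit, Rrm1, was at 0.31, and none of the 6 Mcm subunits reached 2-fold (Mcm3 -0.06, Mcm6 0.54). Pcna was at 32.94 CPM in S2D and 21.53 in C2D (log2 -0.50, -0.75 to -0.25). The 4 mitosis-positive cells, chosen by those genes, held 30.51% of the class's mitosis-gene UMIs and 2.989% of its replication-gene UMIs, so most of both came from cells under the threshold.

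Of 7 inhibitors of cyclin-dependent kinases 3 were higher at 2 days in fibroblast-like cells, Cdkn2a, Cdkn2b (log2 1.95) and Cdkn1c (1.58). Of 6 G1 cyclins and kinases 2 were higher (Cdk4 and Cdk6) and 2 lower (Ccnd1 and Ccnd2). Of all compared genes 12.3% were higher and 8.45% lower. Cdkn2a, the gene of p16 and Arf, had 4 UMIs in S2D against 133 in C2D, and 3 in S6W against 30 in C6W, which is 0.54, 9.705, 0.3055 and 2.252 CPM. It reached the minimum of UMIs only through the caerulein library at both times. Its log2 ratio was 4.28 at 2 days (2.89 to 6.18) and 3.01 at 6 weeks (1.32 to 5.36), and both caerulein libraries were above both saline libraries. Ccnd1 went the other way, at 20.39, 2.846, 20.37 and 4.129 CPM in S2D, C2D, S6W and C6W, with log2 ratios of -2.73 (-3.27 to -2.21) and -2.18 (-2.63 to -1.74). Ccnd2 was lower as well, by log2 ratios of -2.41 and -1.06. At 2 days Cdkn1a was between the limits (-0.86), as was Cdkn2c (0.98), and Chaf1b (2 and 51 UMIs, 3.90), Cdca3 (0 and 77, at least 3.91) and Cdca8 (3 and 38, 2.89) were the most changed of the further replication and mitosis genes.

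Macrophage-like cells contributed the most mitosis-positive cells of C2D, at a modest share of a class that held 2589 cells in C2D against 124 in S2D. Mitosis-positive cells were 1 of 116 in S2D (0.8621%, 0.02182 to 4.71), 76 of 2505 in C2D (3.034%, 2.398 to 3.783), 2 of 142 in S6W (1.408%) and 3 of 128 in C6W (2.344%). The intervals of all 4 libraries overlap, so a difference was not detectable at this number of saline cells. Replication-positive cells were 2 of 116 (1.724%), 27 of 2505 (1.078%), 0 of 142 and 3 of 128. Only 13.16% of the mitosis-positive C2D macrophage-like cells (6.494 to 22.87) were also replication-positive, against 40% of the ductal-like ones (21.13 to 61.33), whose interval overlaps narrowly.

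**Figure D4:**
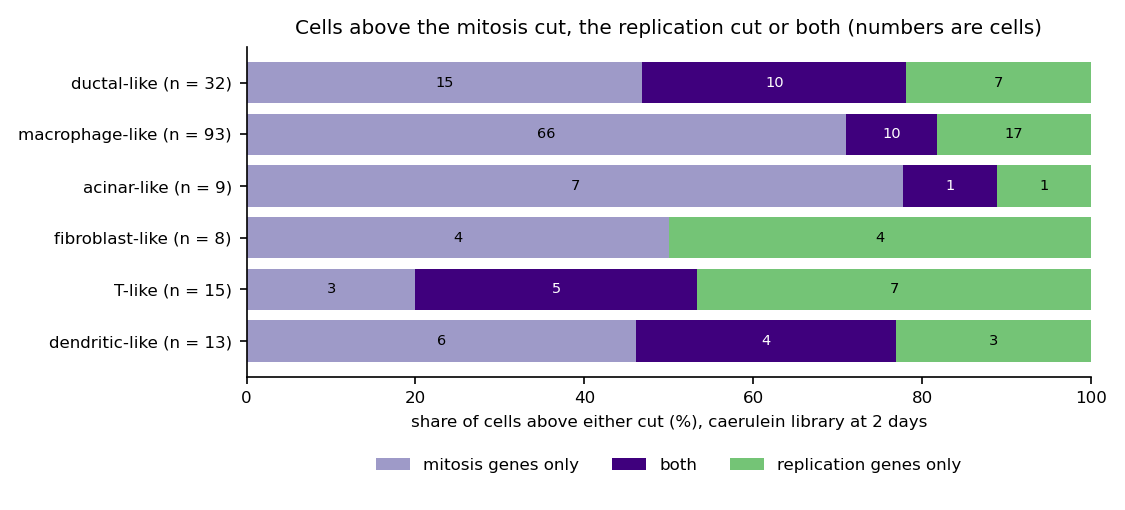
C2D cells past the mitosis threshold only, both thresholds or the replication threshold only, as a share (%) of all cells past either, by class, with cell numbers in the bars. Macrophage-like cells were mostly mitosis-only (66 of 93), ductal-like cells were spread over all 3 (15, 10 and 7), and T-like cells were positive mainly for replication genes (12 of 15).

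In summed UMIs 17 of 39 macrophage-like members were at least 2-fold higher in C2D, where 11.9% of all genes were, 16 of 25 mitosis genes but 1 of 14 replication genes (Tk1). Between the saline libraries, S6W over S2D, 2 of 14 compared members were higher (Top2a and Ube2c) and none lower, where 7.12% and 5.81% of all genes were. Mki67 was at 17.64 CPM in S2D against 80.95 in C2D, and at 35.17 in S6W against 55.69 in C6W (log2 2.26 at 2 days, 1.65 to 2.95). Cdk1 was at 0.8401, 9.516, 2.605 and 11.66 CPM (log2 3.56, 1.08 to 8.87), and Birc5 at 4.201, 20.4, 7.165 and 18.78 CPM (log2 2.34). C2D and C6W were both above their saline libraries in these 3 genes. Ccnb2 (at least 2.43), Cenpf (2.49), Ccna2 (2.89) and Tpx2 (2.83) rested on 0 to 2 UMIs in S2D. Top2a (0.76), Stmn1 (0.99), Mcm2 (0.83), Mcm3 (0.62), Mcm6 (-0.42), Tyms (0.52), Rrm2 (0.24) and Cdc6 (-0.89) were between the limits. Pcna was at 59.65 CPM in S2D and 34.63 in C2D (log2 -0.72, -1.07 to -0.36).

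These ratios depend on how the few saline macrophage-like cells were delimited. When the cell cycle genes were kept in the clustering, 1 cluster changed its name to dendritic and saline cells with mitosis genes changed class. The number of higher members went from 17 to 0, and the log2 ratio of Mki67 to -0.32, Cdk1 to -0.65, Ccnb2 to -1.06, Cenpf to -1.27, Birc5 to -1.42 and Tk1 to -0.28. Without that cluster 11 members were higher. The 4 most changed other cycle genes, Cdca3 (1 and 502 UMIs), Tacc3 (1 and 326), Cdca8 (2 and 430) and Mad2l1 (1 and 188), rest on the same few saline UMIs. Ccnd2 (log2 -1.36) and Cdkn1b, the inhibitor p27 (-1.06), were lower at 2 days, with Cdkn1a at 0.77, Ccnd1 at -0.85 and Cdkn2c at -0.34.

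Mki67 was seen in macrophage-like cells mostly without other mitosis genes. After thinning, 317 of 2505 C2D cells had a Mki67 UMI (12.65%), while 1.876% had Top2a, 1.397% had Cdk1 and 4.192% had Ube2c. Cenpa, the centromeric histone, was in 10.26% and Stmn1 in 10.5%. Of the 317 cells only 57 held any of the 22 mitosis genes that remain without Mki67, Cenpa and Stmn1 (17.98%, 13.91 to 22.66), and 260 held none. Among C2D macrophage-like cells without Mki67, 10.51% held one. The same count gave 12 of 12 Mki67 cells in ductal-like, 6 of 6 in T-like and 6 of 6 in dendritic-like cells of C2D, and 21 of 26 in plasma-like cells of S2D. It gave 1 of 6 in fibroblast-like (16.67%, 0.4211 to 64.12) and 0 of 2 in acinar-like cells of C2D, so few partners were not limited to macrophage-like cells. For Top2a the macrophage-like count was 27 of 47 (57.45%, 42.18 to 71.74). Mki67 UMIs were absent from all 34 type 2 innate lymphoid-like and all 101 blood endothelial-like cells of C2D at the same depth. Macrophage-like cells of the other libraries were few but alike in this, with 1 of 4 in S2D, 1 of 6 in S6W and 0 of 8 in C6W. What gives these cells Mki67 alone was not tested.

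**Figure D5:**
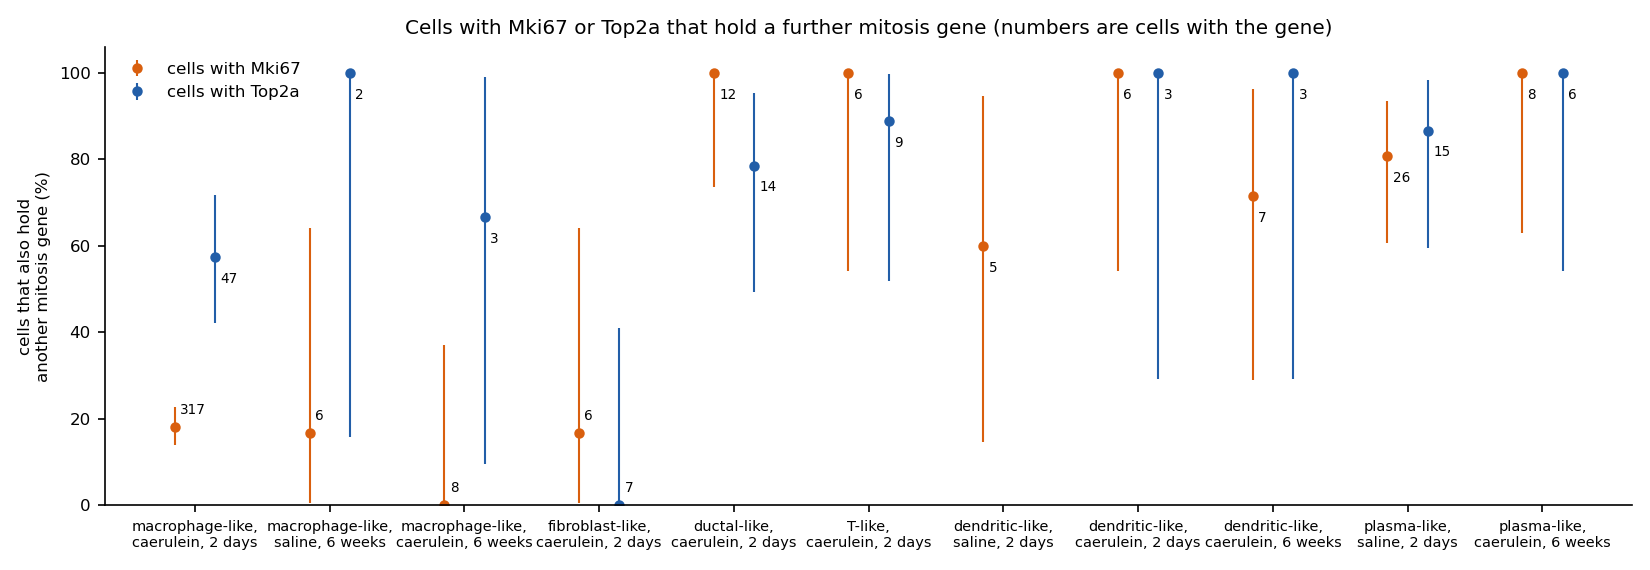
Share (%) of cells with a UMI of Mki67 (orange) or Top2a (blue) that also hold another mitosis gene, after thinning to 2000 UMIs (Cenpa and Stmn1 not counted, nor Mki67 for Top2a), with exact 95% intervals as lines and the number of cells with the gene beside each point. Every class and library with at least 5 Mki67 cells is shown. Macrophage-like and fibroblast-like C2D cells with Mki67 lie at 17.98% and 16.67%, the latter from 6 cells, and ductal-like C2D cells at 100%.

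The macrophage-like share therefore follows the choice of genes and depth more than the ductal-like share does. Leaving out Mki67, Cenpa and Stmn1, a choice made after seeing the data, 52 of 2505 C2D macrophage-like cells were mitosis-positive (2.076%) and 1 of 116 in S2D, while ductal-like cells went from 14.37% to 12.07%. At 8000 UMIs the macrophage-like C2D share was 12.63% with all 25 genes and 3.917% without these 3, and the ductal-like one 22.22% and 15.43%. Within the C2D macrophage-like clusters 3.455% of the cells in the largest were mitosis-positive, 1.266% in the next and 4.37% in the cluster that changed its name. Gpnmb, a gene of lipid-laden macrophages, was in 18.42% of the mitosis-positive cells (10.45 to 28.97) and in 30.38% of the others (28.56 to 32.26), and the monocyte receptor Ccr2 in 39.47% (28.44 to 51.35) and 29.77% (27.95 to 31.63). The other genes followed were Spp1 (59.21% and 58.01%), Arg1 (9.211% and 6.217%), C1qa (77.63% and 82.3%) and Cd68 (63.16% and 71.88%). Ly6c2 was in 2.632% and 1.606%, H2-Ab1 in 42.11% and 35.65%, and Lyve1 in 0.0% and 0.2058%. These differences were not tested, and the median depths before thinning were 19600 and 14160 UMIs.

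Among lymphocytes, T-like cells at 2 days had mitosis-positive shares of 1.685% in S2D (3 of 178), 8.0% in C2D (8 of 100, 3.517 to 15.16), 1.724% in S6W and 2.128% in C6W, and replication-positive shares of 2.247%, 12%, 3.448% and 2.837%. C2D was the highest, with an interval for mitosis genes that overlaps that of S2D (0.3489 to 4.846). In the sums 13 of 30 members were at least 2-fold higher, where 3.71% of all genes were, among them Ccnb2 (8 and 34 UMIs, log2 2.83), Ube2c (1.84), Tk1 (1.68), Kif23 (1.57), Rrm2 (1.40), Mcm5 (1.29) and Stmn1 (1.17). Mki67 (0.56), Top2a (0.62), Cdk1 (0.74), Cenpf (0.88), Birc5 (0.82), Pcna (0.70), Mcm3 (0.26), Mcm6 (0.67) and Tyms (0.67) were between the limits. In NK-like cells (51 and 52 cells) 7 of 12 compared members were higher, where 4.77% of all genes were. They included Top2a (8 and 26 UMIs, log2 1.52), Stmn1 (1.29), Mcm3 (1.54), Rrm1 (1.41) and Cdt1 (1.24, -0.191 to 2.879). Only 1 cell in each library was mitosis-positive. The C2D one, chosen by those genes, held 38.57% of the mitosis-gene UMIs of its class and 24.62% of the replication-gene UMIs. Without thinning, Stmn1 was in 29.41% of S2D and 23.08% of C2D NK-like cells. In T-like and NK-like cells alike, a gene near 0 in S2D could reach the minimum of UMIs only by being higher in C2D. These counts of higher members therefore do not speak for all members.

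Free RNA in a droplet sample gives UMIs in cells that do not make it, and a macrophage gene was read in other C2D classes. Lyz2, a macrophage and neutrophil gene, was at 277.6 CPM in C2D ductal-like cells (2.287 in S2D), 162.2 in acinar-like (1.658) and 389.6 in fibroblast-like cells (4.05), which is 1.5%, 0.876% and 2.1% of its level in C2D macrophage-like cells. The same share of macrophage-like Mki67 would give 1.21 CPM in ductal-like cells, where 67.09 was measured, 1.7 in fibroblast-like (5.765 measured) and 0.709 in acinar-like cells (1.239 measured). All 40 members were above 2 times that carried level in ductal-like and fibroblast-like cells. In acinar-like cells 37 were, all but Mki67, Bub1 and Hmmr. This takes the share of 1 gene for all, and the part of free RNA in the ratios was not tested.

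At 6 weeks 16 of the 40 members could be compared in ductal-like cells and 24 in fibroblast-like cells, the others being too sparse. In ductal-like cells 3 of 16 compared members were at least 2-fold higher in C6W than in S6W, where 2.54% of all genes were, and none was lower, where 0.717% were. These were Top2a (3 and 26 UMIs, log2 1.77, 0.06 to 4.14), Kif23 (1 and 19, 2.90) and Ccne1 (1 and 22, 3.11), all from few saline UMIs. Each reached the minimum of UMIs only through C6W, so their count does not speak for all members. Against S2D as the control 1 member was higher. Stmn1 (-0.16), Pcna (-0.11), Mcm3 (-0.02), Mcm6 (-0.08), Tyms (-0.20), Rrm1 (0.68) and Mcm5 (0.86) were between the limits. Of the other cycle genes Ccnd1 was at -0.17, Cdkn1a at -0.22 and Cdkn2c at 0.13. The 4 named by size were Rbl1 (1.02), Smc2 (-0.95), Rbl2 (0.67) and Cdkn2b (-0.63).

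In fibroblast-like cells at 6 weeks no member of 24 was higher, where 2.02% of all genes were, and 4 were lower, where 1.7% were. The 4 were Top2a (26 and 8 UMIs, log2 -2.01, -3.37 to -0.83), Birc5 (14 and 6, -1.54), Prc1 (15 and 7, -1.41) and Ccne1 (45 and 18, -1.64). In S6W 1 mitosis-positive cell of 744 held 86 of the 351 mitosis-gene UMIs of the class (24.5%), while C6W had 0 such cells. The part of that cell in these ratios was not tested. Mki67 (-0.64), Ccnb2 (-0.31), Stmn1 (-0.18), Pcna (-0.12), Mcm2 (-0.62), Mcm3 (-0.22), Mcm5 (-0.48), Mcm6 (0.37), Tyms (-0.23) and Rrm2 (-0.19) were between the limits. Cdkn1a was at 0.06 and Cdkn2c at 0.39. In acinar-like cells no member reached 20 UMIs, where 4.3% of all compared genes were higher and 5.81% lower.

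Macrophage-like cells at 6 weeks had 6 of 22 members higher, where 3.1% of all genes were, and 1 lower, where 5.33% were. The higher ones were Rrm2 (2 and 33 UMIs, log2 4.10, 2.13 to 7.2), Cdk1 (4 and 18, 2.22), Nusap1 (8 and 27, 1.81), Birc5 (11 and 29, 1.45), Stmn1 (75 and 156, 1.11) and Ccnb2 (11 and 22, 1.05), and the lower one was Cdc6 (21 and 7, -1.53). Mki67 (0.72), Top2a (0.47), Pcna (-0.97), Mcm3 (0.59), Mcm6 (0.27) and Tyms (0.40) were between the limits. The count was 24 with the cell cycle genes in the clustering and 0 without the cluster that changed its name, where Stmn1 turned to -0.28. It thus rests on where a few cells were placed.

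T-like cells had 6 of 20 members higher at 6 weeks, where 6.27% of all genes were, none lower, where 3.22% were, and all 6 were replication genes: Tyms (1 and 75 UMIs, log2 4.90, 2.38 to 10.22), Mcm3 (1.76), Rrm1 (1.48), Mcm4 (1.34), Mcm5 (1.31) and Mcm7 (1.26). The S6W side was 58 cells, and against S2D 2 members were higher. The 3 mitosis-positive C6W cells, of 141 thinned cells, held 50.68% of the replication-gene UMIs of the class, and the 1 in S6W held 20.47%. B-like cells had 6 of 16 higher, where 4.52% of all genes were, and none lower, where 1.79% were, including Ube2c (0 and 45 UMIs, at least 2.92), Top2a (1.82), Rrm2 (3.48) and Stmn1 (1.04). With doublets removed by an expected rate 2 members were higher, and with the cell cycle genes in the clustering 1 was. Only 2 of 227 C6W and 0 of 124 S6W B-like cells were mitosis-positive. The 45 C6W UMIs of Ube2c came from 5 cells and the 22 of Rrm2 from 2 cells, and both genes reached the minimum only through C6W. Without thinning, Stmn1 was in 13.71% of S6W and 6.522% of C6W B-like cells.

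Plasma-like and dendritic-like cells had high shares in libraries other than C2D as well. Plasma-like cells of S2D were mitosis-positive in 23 of 99 cells (23.23%, 15.33 to 32.79) and those of C6W in 11 of 25 (44.0%, 24.4 to 65.07), with too few cells in C2D and S6W to give. Every replication-positive plasma-like cell, 10 in S2D and 7 in C6W, was also mitosis-positive. Dendritic-like cells were mitosis-positive in 4 of 26 cells in S2D (15.38%, 4.356 to 34.87), 10 of 114 in C2D (8.772%, 4.287 to 15.54) and 7 of 23 in C6W (30.43%, 13.21 to 52.92). These 3 intervals overlap.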

How the data were processed

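The deposited files hold raw UMI counts per gene and barcode for each library, which the authors made with Cell Ranger 3.0.2 on mm10 (with FastQC), per the submitters' processing notes. Genes were matched by symbol, and positions and promoter windows came from RefSeq on GRCm38.p6. The members and the gene lists were chosen with earlier results of these data known.

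A barcode was kept from 500 UMIs and 200 genes upwards, provided mitochondrial genes made up no more than 20% of its UMIs. Scrublet called 1.14% (S2D), 0.408% (C2D), 0.738% (S6W) and 1.15% (C6W) of them as doublets, which were removed. The C2D rate is too low for a caller that works, so an expected rate of 0.8% per 1000 barcodes was run as an alternative. Cells of all libraries were clustered together in scanpy 1.11.5 (Python 3.11.15) with 2000 variable genes, 40 principal components, 15 neighbours and Leiden resolution 1, after leaving out 94 cell cycle genes. A cluster was named where at least 3 markers of 1 class were raised and led those of every other class. The names are rebuilt and are not the authors' annotation.

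Shares were counted after drawing 2000 UMIs per cell without replacement, in classes of at least 20 cells. Ratios were computed on raw counts summed over a class and library of at least 50 cells, scaled by TMM (edgeR 4.0.16 in R 4.3.3), for genes whose UMIs in the pair of libraries came to 20 or more. In every comparison, a gene near 0 in 1 library could reach that minimum only by being higher in the other. A gene was counted as higher or lower from a log2 ratio of 1, and a library at 0 UMIs was set to 3, which makes the ratio a bound. Intervals are exact binomial (scipy 1.17.1, numpy 2.4.6). Those of ratios treat each UMI as independent and so leave out the spread between cells. DESeq2 1.42.0 size factors were an alternative. In simulated counts of the 4 main classes at 2 days the rule called 100% of genes raised 4-fold, 47.0 to 60.0% of those raised 2-fold and 0.415 to 3.53% of unchanged genes, the last in macrophage-like cells.

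Genes named in every comparison were Mki67, Top2a, Cdk1, Ccnb2, Cenpf, Birc5, Stmn1, Pcna, Mcm3, Mcm6, Tyms, Rrm2 and Tk1. Up to 3 mitosis and 3 replication members with the largest ratio, up to 4 other cycle genes, and Ccnd1, Cdkn1a and Cdkn2c were added. Genes named beside a short count or for their role fall outside that rule and were chosen after their values were seen.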

Additional observations from a re-analysis of the deposited data

How the results depend on the processing

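The shares of positive cells depend on depth and threshold. The count of higher ductal-like members at 2 days held under every scaling, clustering and doublet setting. In other classes such counts moved with the clustering or the minimum of UMIs. With 1 library a group, no library could be left out and no paired analysis was possible. The mitosis-positive C2D shares were 14.37% in ductal-like, 2.062% in acinar-like, 0.6873% in fibroblast-like and 3.034% in macrophage-like cells and 0.6079% in the unnamed acinar and duct cluster. In that order the replication-positive shares were 9.77%, 0.5155%, 0.6873%, 1.078% and 0.6079%.

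Without thinning the mitosis-positive shares were 37.71% ductal, 5.398% acinar, 13.29% fibroblast, 24.3% macrophage and 4.37% in the unnamed cluster, and the replication-positive ones 49.14%, 6.17%, 47.7%, 20.74% and 10.54%. With 500 UMIs kept after taking out digestive genes they were 6.286%, 0.2571%, 0.0%, 1.005% and 0.0%, and 1.143%, 0.0%, 0.0%, 0.116% and 0.0%. At 1000 UMIs the macrophage-like mitosis share was 1.716%, and the replication shares were 5.172% ductal, 0.0% fibroblast, 0.312% macrophage and 0.0% unnamed. At 4000 UMIs the mitosis share was 5.456% macrophage and 0.0% unnamed, and the replication shares were 15.7% ductal, 1.893% fibroblast and 2.874% macrophage. At 8000 UMIs, chosen after seeing the data, mitosis shares were 22.22% ductal, 5.417% acinar and 12.63% macrophage, and replication shares 25.31% ductal, 4.167% acinar, 9.582% fibroblast, 7.923% macrophage and 2.286% unnamed. Each of these draws ranks ductal-like cells highest of the 5 for mitosis genes.

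With at least 2 genes, mitosis shares were 20.69% ductal, 4.381% acinar, 2.062% fibroblast and 7.585% macrophage, and replication shares 15.52%, 2.577%, 3.265% and 3.633%. With at least 5 genes, mitosis shares were 0.7732% acinar and 1.916% macrophage, and replication shares 4.598% ductal, 0.0% acinar, 0.0% fibroblast, 0.1597% macrophage and 0.0% unnamed. Without Mki67, Cenpa and Stmn1, also chosen after seeing the data, the macrophage share was 2.076%, and at 8000 UMIs it was 3.917% beside 4.583% acinar and 0.0% unnamed. Without clusters of which at least 90% came from 1 library, fibroblast-like cells had 0.0% and 2.632% of the few that remained, and macrophage-like cells 4.282% and 2.015%. That setting left too few ductal-like and acinar-like cells in C2D to give a value.

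The count of higher members at 2 days was 38 in ductal-like cells under every scaling, clustering and doublet setting and 27 with at least 100 UMIs. With at least 100 UMIs it fell to 2 of acinar-like and 5 of fibroblast-like members, since fewer were compared, and with at least 1 UMI it was 20 in acinar-like cells. In macrophage-like cells the count of 17 became 0 with the cell cycle genes kept in the clustering, where Mki67 was at -0.317, Cdk1 at -0.649, Ccnb2 at -1.06, Cenpf at -1.266, Birc5 at -1.424 and Tk1 at -0.28. It was 11 without the cluster that changed its name, a setting added after seeing the data. At 6 weeks the ductal-like count of 3 was 0 with at least 100 UMIs, 6 with at least 1 UMI and 1 with S2D as the control. With at least 1 UMI it was 2 in acinar-like, 1 in fibroblast-like and 13 in macrophage-like cells. The macrophage-like count of 6 became 1 with at least 100 UMIs, 24 with the cell cycle genes in the clustering and 0 without the cluster that changed its name, where Stmn1 was at -0.284. DESeq2 size factors, plain CPM and at least 1000 UMIs per barcode moved no count of the 4 main classes by over 1.5 times.

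Depth limits the shares. A thinned cell shows mainly the most abundant members, so a cell under the threshold is not shown to be outside the cycle. The saline macrophage-like libraries held few cells, and the ratios of most mitosis genes there rest on single UMIs. No interval covers variation between animals.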
